A study of Homo sapiens with 18 samples.

Results

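A set of 35 genes for fibrillar collagens and the stromal matrix around them was followed in human podocytes on 3D hemispheres, out of 58735 genes in the deposited count table. The genes were taken by symbol from a list drawn up with earlier results of these data known, and each was found under 1 Ensembl identifier. The cells were PODO/TERT256, a human line kept dividing by telomerase. Podocytes are epithelial cells that wrap the capillaries of the glomerulus, the filter of the kidney. Smooth hemispheres and hemispheres with a fractal surface were compared. Each surface had controls, cells treated with TNF-α plus IL-6 as inflammatory cytokines, and cells with THP-1 macrophages, THP-1 being a leukaemia line of monocytes. That made 6 groups of 3 libraries, and the podocytes of all groups are this single line. Nothing in the labels tells if the replicates were grown separately, so the p-values cover the spread of these libraries, which can be technical. In bulk RNA, fewer cells of a type and less RNA per cell cannot be told apart.

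Library totals ran from 11488204 to 21264180 counts, and 31 of the 35 genes passed the filter on low counts. A pair of libraries stood apart from the rest of their groups. Fractal THP-1 replicate 3 had 0.847% of its counts in mitochondrial genes and 17934 genes with a count, against 4.39% and 4.47%, and 22609 and 22907 genes, in its partners. Smooth cytokines replicate 2 had 8.09% mitochondrial counts, against 4.22% and 4.63%. The podocyte label was checked against 10 markers: NPHS1, for nephrin of the slit diaphragm, had 6 counts and WT1 had 37 in all libraries together, while SYNPO stood at 66.1 and CD2AP at 179.5 counts per 1e6 counts (CPM) in smooth controls. All 10 summed to 199 to 314 CPM, and the cells are called podocytes after their label. Summed CPM of 19 monocyte and macrophage markers ran from 2.16 to 5.42 in libraries without THP-1 cells, from 43.3 to 49.6 with them on smooth and from 19.9 to 24.2 on fractal hemispheres. Of the 19, 17 had counts in the smooth and 15 in the fractal THP-1 libraries, with MRC1 and C1QB at 0 in both. LYZ and CD68 had 5 counts each and AIF1 had 7 in all libraries together. LAPTM5 averaged 14.6 CPM on smooth and 4.82 on fractal hemispheres with THP-1 cells. With THP-1 cells the matrix levels can therefore include macrophage RNA, and its part in them was not tested. The sum of 7 fibroblast markers was 148 to 167 CPM in smooth and 124 to 126 in fractal controls, 82.9 to 84.7 and 96.8 to 112 with cytokines, and 176.5 to 202 and 82.6 to 135 with THP-1 cells. These markers went different ways with cytokines. Mean THY1 fell from 114.5 to 33.5 CPM on smooth and from 81.5 to 51.2 on fractal hemispheres. TCF4 went from 37.0 to 42.7 and from 36.5 to 43.2 CPM, and PDGFRA from 0.402 to 4.57 and from 0.497 to 5.28. The 8 mesangial and smooth muscle markers, of which ITGA8 and GATA3 were at 0 throughout, summed to 37.2 to 46.8 CPM in controls, 34.5 to 47.5 in smooth and 54.8 to 59.9 in fractal cytokine libraries, and 25.0 to 33.9 with THP-1 cells. Endothelial markers summed to 6.57 to 14.0 CPM without THP-1 cells, and to 28.2 to 29.1 on smooth and 17 to 23.3 on fractal hemispheres with them, and tubule markers reached at most 6.24 CPM. The part of these cell types in the results was not tested.

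Fibrillar collagens are secreted as procollagens whose ends are cut off outside the cell, after which the triple helices pack into fibrils and lysyl oxidases crosslink them. Collagen I is made of COL1A1 and COL1A2 chains, and collagen V helps to start its fibrils. Fibronectin is laid down by cells as a fibrillar network on which collagens assemble, fibrillins build the microfibrils of elastic tissue, and small leucine-rich proteoglycans such as decorin coat collagen fibrils. Healthy podocytes face a basement membrane of collagen IV and laminin, and fibrillar collagen is known in the glomerulus mainly from scarring.

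FN1, the fibronectin gene, took more counts than the other 34 genes together in every library. Its share of all counts was 10.1, 9.84 and 10.1% in the smooth controls and 8.27, 8.26 and 8.33% in the fractal controls. With cytokines it was 13.5, 9.28 and 12.8% on smooth and 11.8, 11.8 and 11.9% on fractal hemispheres. With THP-1 cells it was 14.1, 12.4 and 13.0% on smooth and 18.5, 17.7 and 14.4% on fractal hemispheres. Every treated library other than smooth cytokines replicate 2, the low one of its group, lay above all 6 controls. The other 34 genes took 1.79 to 1.89% in controls, 1.74 to 2.65% with cytokines and 1.28 to 2.23% with THP-1 cells. Because a gene of this size can shift the share left to all others, each test was repeated with FN1 left out of the totals and scaling factors. None of 279 results for a gene in a comparison changed its call. That setting hardly moved the scaling, so it is a weak check. With THP-1 cells on fractal hemispheres the median log2 fold change of all genes was 0.039 in it and 0.041 in the main fit. Upper-quartile scaling put that median at 0.13.

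**Figure D1:**
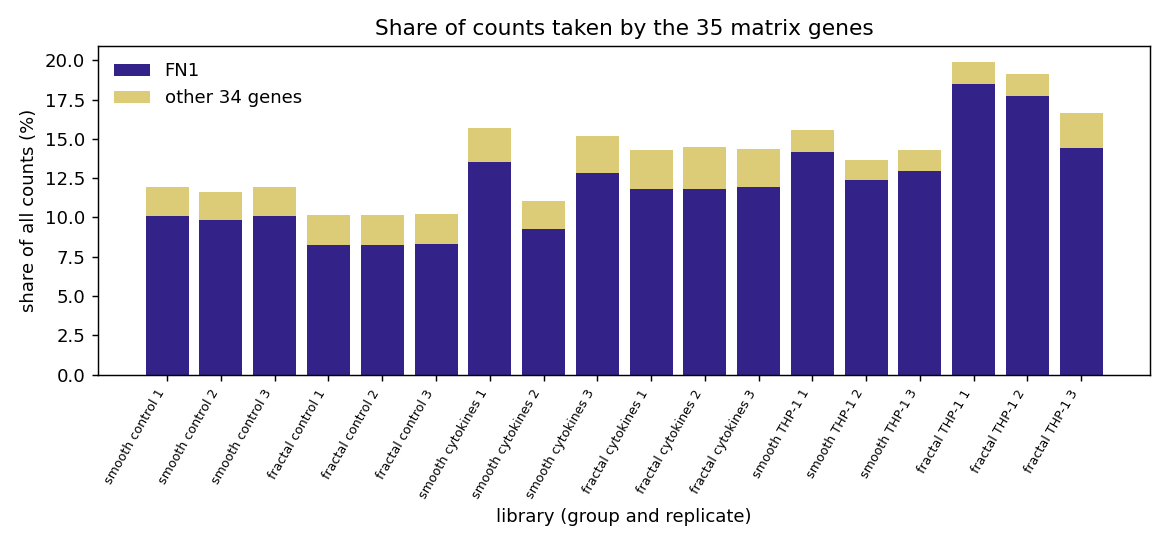
Share of all counts in each of the 18 libraries, in percent, taken by FN1 (dark) and by the other 34 matrix genes (light). The bars of the fractal THP-1 libraries are the tallest, and smooth cytokines replicate 2 is the lowest library of its group.

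Per kilobase of exon, FN1 stood at 5825 ± 116 CPM (SD, n = 3) in the smooth controls, ahead of COL1A1 at 568 ± 17.2 CPM and FBN1 at 277 ± 10.3 CPM. Exon length is that of all exons annotated for a gene, merged, so the order of genes depends on that annotation. LOXL2 at 223 ± 3.82 CPM per kilobase and VCAN at 118 ± 4.59 followed. COL5A2, LOX and COL5A1 stood at 112 ± 0.774, 110.0 ± 1.80 and 102 ± 1.48 CPM per kilobase, of which the first pair lay within their spread. COL6A2 and MFAP2 were likewise not separable at 34.6 ± 0.184 and 34 ± 2.71 CPM per kilobase, nor were MFAP5 and LUM at 8.29 ± 1.22 and 8.16 ± 0.537. Far lower stood COL1A2 at 0.526 ± 0.0782 and COL3A1 at 0.0262 ± 0.0286 CPM per kilobase. The 4 genes left out of all tests were COL5A3 with 8 counts in 2 libraries, COL14A1 with 87 counts, ELN, the elastin gene, with 39, and MFAP4 with 70 counts over all 18 libraries.

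Below, levels are CPM after scaling by trimmed mean of M-values (TMM), with SD over 3 libraries. A log2 fold change carries its standard error (SE), and an adjusted p is the Benjamini-Hochberg value of edgeR's quasi-likelihood test over 16129 genes, called under 0.05. Cytokine and THP-1 comparisons on the same surface share their control libraries. In the controls, 0 genes of the set were called higher and 2 lower on fractal than on smooth hemispheres by edgeR, while 0.651% of all genes tested were called higher and 1.12% lower, 1.77% together. In either direction, 9 of the set had an unadjusted p under 0.05, against 12.2% of all genes, and DESeq2 called 4, against 3.51%. With cytokines on smooth hemispheres 11 of 31 were higher and 8 lower than in controls, against 13.2% and 12.4% of all genes (25.7% together). On fractal hemispheres cytokines gave 14 higher and 1 lower, against 13.0% and 12.9% (25.8%). With THP-1 cells 7 were higher and 14 lower on smooth hemispheres, against 17.3% and 17.7% (35.1%). On fractal hemispheres 11 were higher and 13 lower with THP-1 cells, against 25.0% and 25.5% (50.5%). Fractal against smooth gave 6 higher and 2 lower under cytokines, against 1.72% and 2.74% (4.46%). With THP-1 cells it gave 13 higher and 3 lower, against 8.25% and 11.7% (20.0%).

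The median log2 fold change of the 31 genes was 0.29 with cytokines on smooth and 0.56 on fractal hemispheres, beside 0.007 and 0.026 for all genes. It was -0.15 and 0.13 with THP-1 cells, beside 0.015 and 0.041, also with COL3A1 at its bound below. Between surfaces the medians were -0.07 in controls, 0.21 with cytokines and 0.36 with THP-1 cells, beside -0.007, 0.002 and -0.004 for all genes. Without the pair of libraries that stood apart, a choice made after seeing the data, the medians were 0.44 and 0.56 for cytokines on smooth and fractal hemispheres, -0.13 and 0.07 for THP-1 cells, and -0.06, 0.19 and 0.17 between surfaces. In that setting 32 genes were tested. Fractal against smooth then gave 1 higher and 7 lower in controls, against 3.48% and 3.69% of all genes (7.17% together). Under cytokines it gave 11 and 7, against 4.24% and 5.18% (9.42%), and with THP-1 cells 12 and 4, against 10.2% and 15.3% (25.5%). Cytokines gave 15 and 8 on smooth hemispheres, against 17.3% and 16.9% (34.2%), and 17 and 2 on fractal ones, against 17.6% and 18.1% (35.7%). THP-1 cells gave 8 and 15 on smooth, against 21.7% and 22.9% (44.6%), and 13 and 14 on fractal hemispheres, against 25.4% and 27.7% (53.1%).

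**Figure D2:**
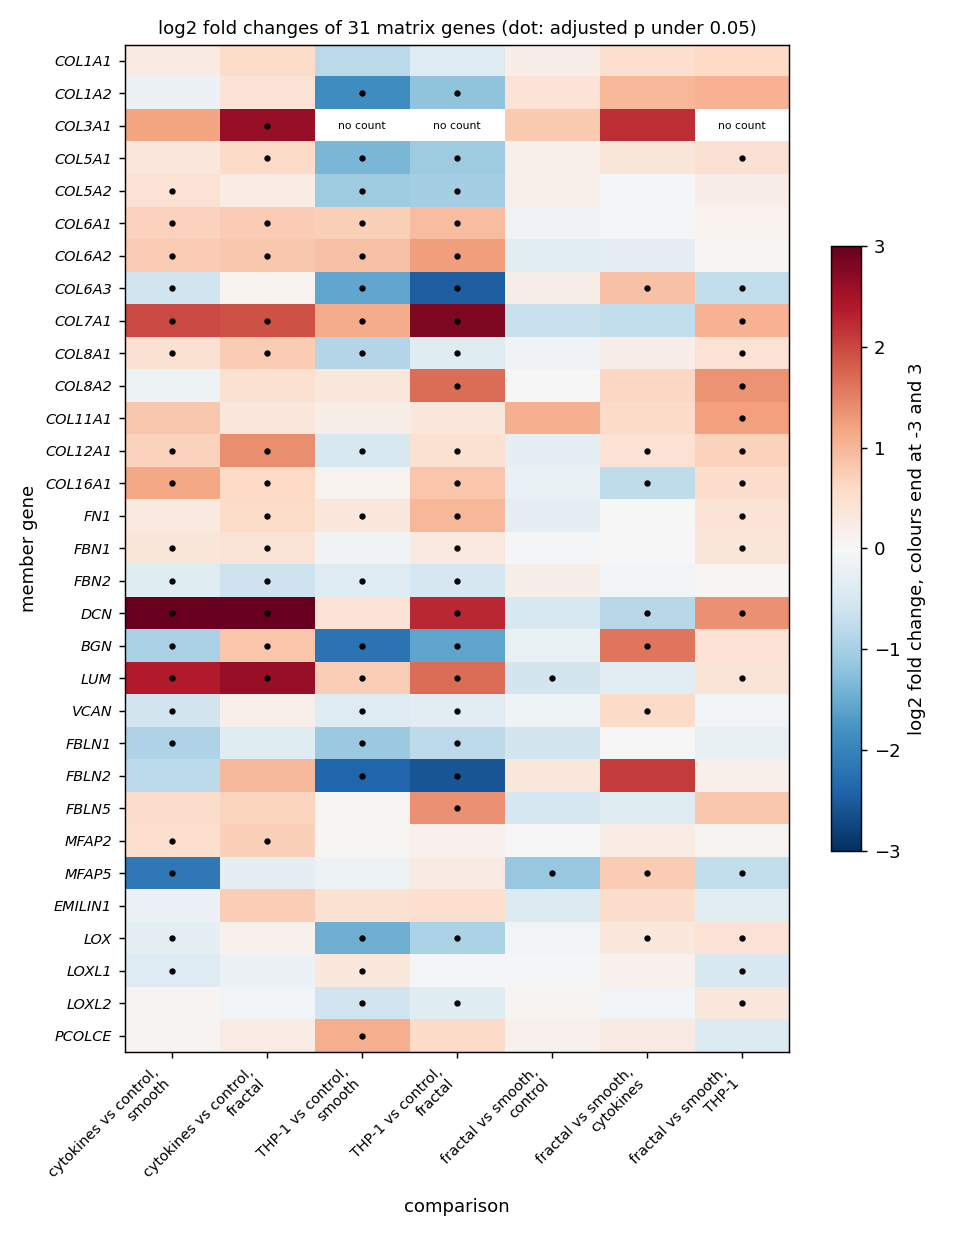
Fitted log2 fold changes of the 31 tested genes (rows) in 7 comparisons (columns), red for higher and blue for lower in the first-named group, with a dot where the adjusted p was under 0.05. COL3A1 is left white where the THP-1 libraries had no count, and DCN with cytokines passes the end of the colour scale on both surfaces.

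The genes called higher with cytokines on both surfaces were 10 of 31, against 7.81% of all genes tested: COL6A1, COL6A2, COL7A1, COL8A1, COL12A1, COL16A1, FBN1, DCN, LUM and MFAP2. FBN2 was the 1 gene of the set called lower on both, against 7.72%, and the comparisons rest on separate libraries. RefSeq windows of up to 250 bases before the start of transcription (GRCh38.p14) were read for these genes, to show what sequence stands before genes that rose together. COL6A1, COL8A1, DCN and LUM had no entry in the table used. Shown are COL7A1, the gene of the 3 with the largest cytokine change, COL6A2 and COL12A1, 5′ to 3′ along the gene's strand, with matches to 6 short motifs in capitals.
COL7A1 chr3:48595330-48595579, minus strand: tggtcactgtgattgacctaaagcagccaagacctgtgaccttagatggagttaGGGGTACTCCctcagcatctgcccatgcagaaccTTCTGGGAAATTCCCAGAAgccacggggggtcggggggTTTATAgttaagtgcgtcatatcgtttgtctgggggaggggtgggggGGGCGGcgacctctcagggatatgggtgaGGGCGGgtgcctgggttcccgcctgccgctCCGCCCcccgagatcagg
COL6A2 chr21:46097862-46098096, plus strand: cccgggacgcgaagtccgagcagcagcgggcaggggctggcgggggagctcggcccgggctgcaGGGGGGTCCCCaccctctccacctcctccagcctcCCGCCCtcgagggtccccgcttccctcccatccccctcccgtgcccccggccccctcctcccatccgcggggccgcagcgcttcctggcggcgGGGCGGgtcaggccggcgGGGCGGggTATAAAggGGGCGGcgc
COL12A1 chr6:75206054-75206303, minus strand: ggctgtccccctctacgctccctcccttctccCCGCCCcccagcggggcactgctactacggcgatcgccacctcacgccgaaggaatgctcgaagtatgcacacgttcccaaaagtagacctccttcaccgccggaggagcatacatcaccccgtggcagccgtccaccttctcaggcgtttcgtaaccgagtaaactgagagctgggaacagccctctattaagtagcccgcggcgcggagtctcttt
The motifs, searched on both strands, were the NF-kB consensus, a STAT site (TTCNNNGAA), AP-1 (TGANTCA), the GC box (GGGCGG), the CCAAT box (its name is its sequence) and the TATA box (TATAAA). The COL7A1 window held 2 STAT matches and 3 NF-kB matches, of which 2 overlap each other and the STAT matches 162 to 144 bases before the start. It also held 3 GC boxes and 1 TATA box. COL6A2 held 2 overlapping NF-kB matches 186 to 176 bases before the RefSeq start, 4 GC boxes and 1 TATA box. The last 15 bases of the COL6A2 window lie in annotated exons and are not printed, which leaves the 235 bases shown. Its positions count from the end of the full 250 bases, not from the end of the printed sequence. COL12A1 held 1 GC box. Of the windows not printed, FBN1 held none of the 6, COL16A1 held 2 GC boxes, and MFAP2 had 2 entries, one with 2 AP-1 matches and the other with 2 GC boxes and 1 NF-kB match. Of 35116 RefSeq windows of 250 bases, 9.96% had an NF-kB match, 6.57% a STAT match and 6.57% an AP-1 match. A GC box stood in 42.6%, a CCAAT box in 32.0% and a TATA box in 10.7%. A match of letters is a description and not a site of binding.

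The fibrillar collagens themselves did not move as one. COL1A1, on chromosome 17 at 50183289 to 50201632 (GRCh38), encodes the more abundant chain of collagen I. It stood at 5386, 5635 and 5707 CPM in smooth controls and 6401, 6328 and 6431 in fractal controls. With cytokines it read 6307, 4906 and 8571 CPM on smooth and 9470, 10600 and 8164 on fractal hemispheres. With THP-1 cells COL1A1 read 3409, 3045 and 3142 CPM on smooth and 3169, 3164 and 8302 on fractal hemispheres. All 3 fractal cytokine libraries lay above all controls, the smooth THP-1 libraries lay below them, and fractal THP-1 replicate 3 stood far above its partners. COL1A1 passed the threshold in none of the 9 comparisons, with log2 fold changes of 0.24 ± 0.31 and 0.56 ± 0.31 for cytokines (adjusted p = 0.636 and 0.224) and -0.80 ± 0.31 and -0.39 ± 0.31 for THP-1 cells (adjusted p = 0.0632 and 0.323). Without the libraries that stood apart, those 4 values became 0.41, 0.56, -0.80 and -1.02, with adjusted p of 0.0176, 0.00143, 5.95e-05 and 1.81e-05.

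COL1A2, the partner chain, was barely present, with 83 to 486 counts in a group. Its level was 4.94, 5.99 and 6.67 CPM in smooth controls and 9.30, 7.0 and 6.93 in fractal controls. With cytokines COL1A2 held 6.28, 2.92 and 6.39 CPM on smooth and 10.3, 10.4 and 10.2 on fractal hemispheres. Its cytokine log2 fold changes of -0.17 and 0.42 were not called. Fractal against smooth under cytokines, it was not called in the main fit. It passed there without the libraries that stood apart (0.705, adjusted p = 0.0247). The THP-1 libraries held 1.92, 1.65 and 1.26 CPM on smooth and 2.52, 1.71 and 6.15 on fractal hemispheres. COL1A2 fell by 1.85 ± 0.36 on the log2 scale on smooth hemispheres (adjusted p = 0.000265) and by 1.21 ± 0.33 on fractal ones (adjusted p = 0.00367), or by 1.87 without fractal THP-1 replicate 3. Per kilobase, COL1A1 exceeded COL1A2 by 1093 ± 135 times in smooth controls and by 2311 ± 446 times in smooth THP-1 libraries. COL3A1, of collagen III, had 144 counts in 12 libraries, 95 of them in fractal cytokine libraries, and 0 in the 6 THP-1 libraries. Against a floor of 3 counts over a group, that made COL3A1 at least 3.20-fold lower on smooth and at least 4.92-fold lower on fractal hemispheres. These bounds take the 9 smooth and 18 fractal control counts as given, without their error. The 9 were split 1, 7 and 1 over the smooth controls. The rise of COL3A1 with cytokines on fractal hemispheres (2.62 ± 0.66, adjusted p = 0.00549) missed the threshold without fractal cytokines replicate 2 (0.0519). Its fall with THP-1 cells on smooth hemispheres missed it without smooth control replicate 2 (0.153) or smooth THP-1 replicate 2 (0.0501). Voom, an alternative test, did not call that fall (adjusted p = 0.0676). Fractal against smooth under cytokines, COL3A1 was not called in the main fit. It passed there in other settings, such as without the libraries that stood apart (2.52, adjusted p = 0.0247).

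Collagen V chains, which join collagen I fibrils, fell with THP-1 cells on both surfaces. COL5A1 stood at 1136, 1129 and 1161 CPM in smooth controls, 1286, 1259 and 1262 in fractal controls, 460, 417 and 438 in smooth THP-1 libraries and 496, 492 and 827 in fractal ones. No THP-1 library reached the controls. COL5A1 fell by 1.38 ± 0.15 on the log2 scale on smooth (adjusted p = 4.23e-07) and by 1.07 ± 0.15 on fractal hemispheres (adjusted p = 4.85e-06). COL5A2 went from 832, 835 and 843 to 409, 388 and 398 CPM on smooth and from 913, 918 and 942 to 382, 371 and 621 CPM on fractal hemispheres. Its falls were 1.07 ± 0.13 and 1.01 ± 0.13 on the log2 scale (adjusted p = 5.24e-07 and 4.94e-07). With cytokines, COL5A1 was called higher on fractal hemispheres (0.57 ± 0.15, adjusted p = 0.00652), with 0.35 ± 0.15 on smooth ones (adjusted p = 0.0875). COL5A2 was called higher on smooth hemispheres (0.44 ± 0.12, adjusted p = 0.0111, or 0.067 without smooth cytokines replicate 1), with 0.23 ± 0.12 on fractal ones (adjusted p = 0.191). The interaction, which tests whether the 2 surfaces differ in the effect, was not past the threshold for either chain (adjusted p = 0.754 and 0.71). Without the libraries that stood apart both chains were called higher on both surfaces, with log2 fold changes of 0.23 to 0.57. COL11A1, a minor fibrillar chain related to collagen V, stood between 1.71 and 7.62 CPM and was higher on fractal than smooth hemispheres with THP-1 cells, at 6.63, 4.67 and 6.83 against 2.39, 1.71 and 3.55 CPM (1.24 ± 0.30, adjusted p = 0.00446). COL5A1 was also called higher on fractal hemispheres there (0.46 ± 0.15, adjusted p = 0.0301), but not without any 1 of 4 libraries, with 0.17 (adjusted p = 0.135) without fractal THP-1 replicate 3. Without both libraries that stood apart it was called.

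**Figure D3:**
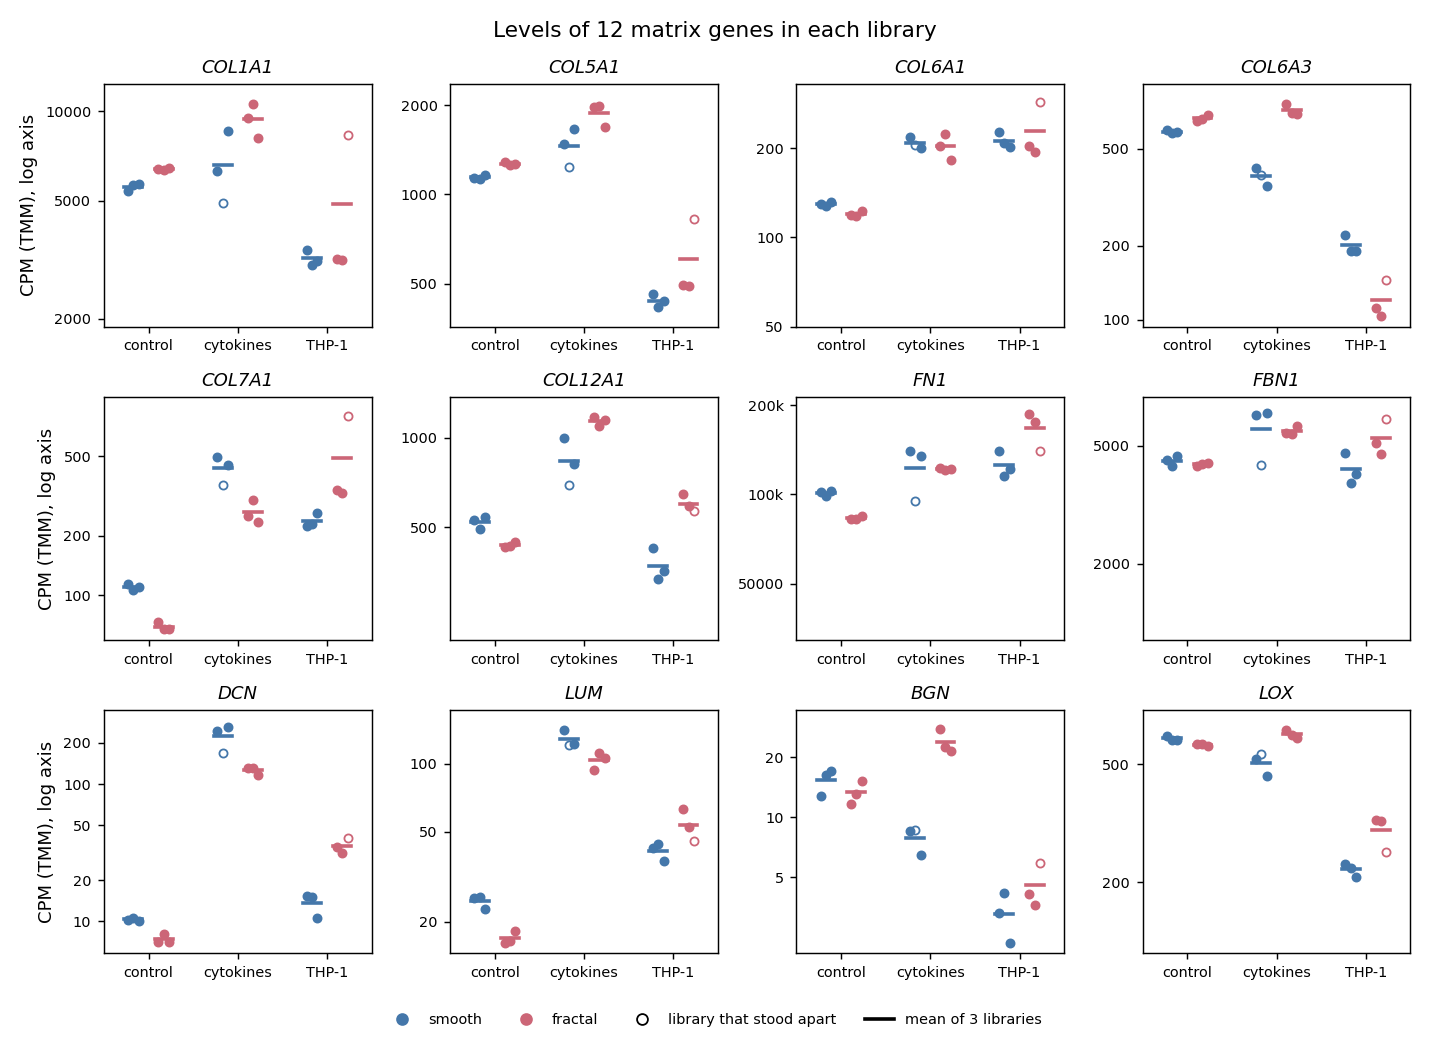
Levels of 12 matrix genes in each library, as CPM on log axes, for smooth (blue) and fractal (red) hemispheres in 3 conditions. Horizontal lines are means of 3 libraries and open points are the libraries that stood apart. COL5A1, COL6A3 and LOX lie below controls with THP-1 cells, and DCN and LUM lie above controls with cytokines.

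Collagen VI forms beaded filaments around cells from 3 different chains, and its chains were called in opposite directions in 3 of the 4 treatment comparisons. COL6A1 and COL6A2 are neighbours on chromosome 21 (45981737 to 46005050 and 46098097 to 46132849), and COL6A3 lies on chromosome 2 (237324003 to 237414375). COL6A1 went from 129, 127 and 132 CPM in smooth controls to 217, 205 and 201 with cytokines and 226, 208 and 201 with THP-1 cells. On fractal hemispheres it went from 118.5, 118 and 123 CPM to 204, 223 and 182, and to 202.5, 194 and 287. No treated library overlapped the controls. The log2 fold changes of COL6A1 were 0.68 ± 0.11 and 0.76 ± 0.11 for cytokines and 0.71 ± 0.11 and 0.93 ± 0.11 for THP-1 cells on smooth and fractal hemispheres, with adjusted p of 2.17e-05 or lower. COL6A2 rose by 0.76 ± 0.09, 0.80 ± 0.09, 0.87 ± 0.09 and 1.25 ± 0.10 in the same 4 comparisons, with adjusted p of 1e-06 or lower.

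COL6A3 was at 596, 579 and 585 CPM in smooth controls and 649, 660 and 686 in fractal controls. With cytokines it was at 417, 391 and 352 CPM on smooth but at 759, 696 and 693 on fractal hemispheres. The THP-1 libraries had 222, 191 and 190 CPM on smooth and 112, 103 and 145 on fractal hemispheres. Smooth cytokine libraries thus lay below and fractal cytokine libraries above every control, and all THP-1 libraries lay below both. COL6A3 fell by 0.60 ± 0.10 on the log2 scale with cytokines on smooth hemispheres (adjusted p = 3.33e-05), and its change on fractal ones was 0.11 ± 0.10 (adjusted p = 0.463). The difference of these effects was 0.71 ± 0.14 (adjusted p = 0.00274). With THP-1 cells COL6A3 fell by 1.55 ± 0.10 on smooth (adjusted p = 7.37e-12) and by 2.47 ± 0.10 on fractal hemispheres (adjusted p = 7.72e-16), the interaction being -0.93 ± 0.14 (adjusted p = 3.33e-05). Fractal against smooth, COL6A3 was 0.89 ± 0.10 higher under cytokines (adjusted p = 8.25e-07) and 0.75 ± 0.10 lower with THP-1 cells (log2 -0.75, adjusted p = 3.77e-06).

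Ratios within a library do not depend on its scaling. Per kilobase, COL6A3 over COL6A1 was 1.26, 1.24 and 1.21 in smooth controls and 1.49, 1.52 and 1.52 in fractal controls. It was 0.522, 0.518 and 0.477 with cytokines on smooth and 1.01, 0.848 and 1.04 on fractal hemispheres. It was 0.267, 0.249 and 0.257 with THP-1 cells on smooth and 0.150, 0.145 and 0.137 on fractal hemispheres. No group overlapped another, and both libraries that stood apart kept to their groups. COL6A1 over COL6A2 stayed between 0.597 and 0.859 in all 18 libraries.

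**Figure D4:**
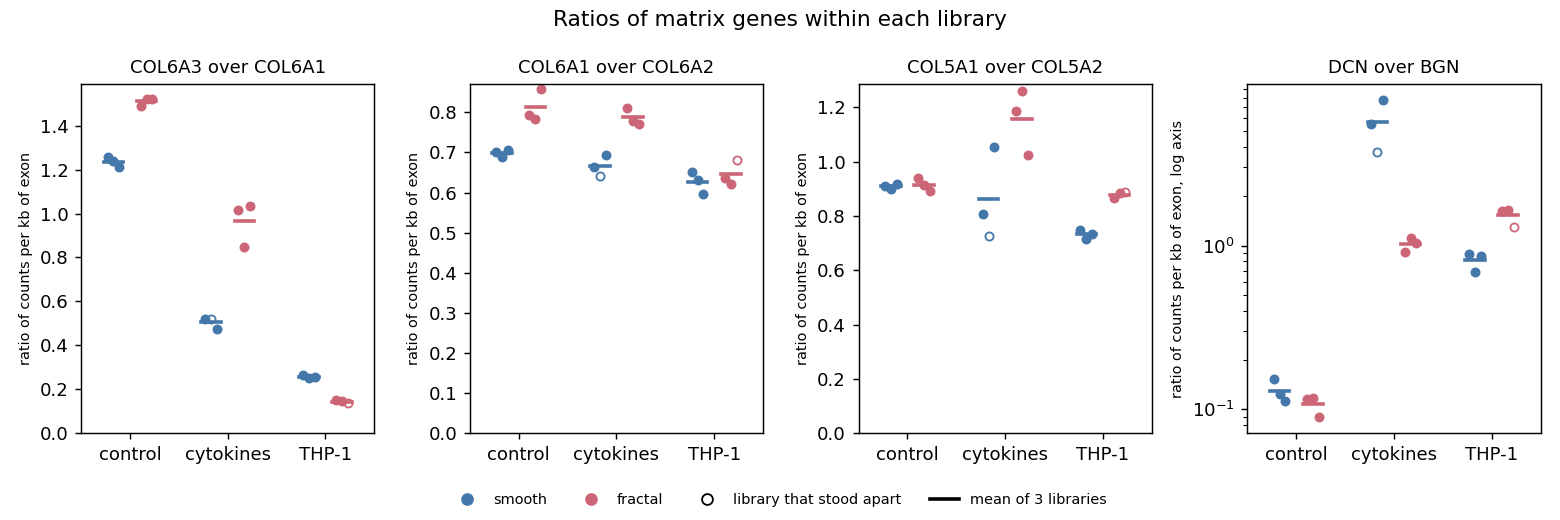
Ratios of counts per kilobase of exon within each library for 4 pairs of matrix genes, by condition and surface, the decorin to biglycan ratio on a log axis. Lines are means of 3 libraries. The ratio of COL6A3 to COL6A1 falls from above 1.2 in controls to below 0.27 with THP-1 cells, while COL6A1 to COL6A2 stays under 0.86.

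Among collagens outside the fibril, COL7A1, of the anchoring fibrils under epithelia, rose in all 4 treatments. It read 115, 107 and 110 CPM in smooth controls and 73.4, 67.5 and 67.8 in fractal controls. With cytokines it read 498.5, 361 and 451 CPM on smooth and from 233 to 301 on fractal hemispheres. In the THP-1 libraries it read 224, 229 and 260 CPM on smooth and 339.5, 327 and 800 on fractal hemispheres. Treated libraries all exceeded the controls, and the highest was fractal THP-1 replicate 3. COL7A1 rose by 1.98 ± 0.28 and 1.91 ± 0.28 on the log2 scale with cytokines on smooth and fractal hemispheres (adjusted p = 0.000124 and 0.000193). In the THP-1 comparisons it rose by 1.1 ± 0.27 on smooth (adjusted p = 0.00665) and 2.81 ± 0.29 on fractal hemispheres (adjusted p = 2.16e-06), or 2.25 without the libraries that stood apart. The THP-1 interaction was 1.71 ± 0.39 (adjusted p = 0.00993). COL7A1 was also higher on fractal than on smooth hemispheres with THP-1 cells (1.04 ± 0.27, adjusted p = 0.0154), a call lost without smooth THP-1 replicate 1 (0.0597) or 2 (0.0577) and when only the 6 THP-1 libraries were fitted (0.0671). The difference was 0.49 without fractal THP-1 replicate 3 (adjusted p = 0.00273). In controls COL7A1 was at -0.67 ± 0.28, fractal against smooth (adjusted p = 0.337), which passed without the libraries that stood apart (4.84e-08).

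COL12A1, which sits on the surface of collagen I fibrils, changed sign between surfaces with THP-1 cells. Its levels were 528, 492 and 543 CPM in smooth controls and 430, 431 and 445 in fractal controls. They were 1001, 692 and 818 CPM with cytokines on smooth and 1174, 1098 and 1147 on fractal hemispheres. They were 424, 333 and 356 CPM with THP-1 cells on smooth and 646, 588.5 and 568.5 on fractal hemispheres. The smooth THP-1 libraries were below and the fractal ones above their controls. COL12A1 rose by 0.68 ± 0.10 and 1.39 ± 0.10 with cytokines (adjusted p = 1.42e-05 and 3.12e-10; interaction 0.70 ± 0.15, adjusted p = 0.00529). With THP-1 cells COL12A1 fell by 0.49 ± 0.10 on smooth (adjusted p = 0.00055) and rose by 0.47 ± 0.10 on fractal hemispheres (adjusted p = 0.000521), and the interaction was 0.95 ± 0.15 (adjusted p = 4.64e-05). Fractal exceeded smooth by 0.45 ± 0.10 under cytokines (adjusted p = 0.00819, or 0.0615 without smooth cytokines replicate 2) and by 0.70 ± 0.10 with THP-1 cells (adjusted p = 1.96e-05).

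COL8A1, a network-forming collagen, stood at 486 to 503 CPM in smooth and 453 to 475 in fractal controls, at 555.5 to 789 CPM in the 6 cytokine libraries and at 260 to 387 in the 6 THP-1 libraries. All cytokine libraries lay above and all THP-1 libraries below the controls. COL8A1 rose by 0.45 ± 0.09 and 0.75 ± 0.09 with cytokines (adjusted p = 0.000577 and 8.24e-07) and fell by 0.88 ± 0.09 and 0.36 ± 0.09 with THP-1 cells on smooth and fractal hemispheres (adjusted p = 4.46e-08 and 0.00226). With THP-1 cells COL8A1 was higher on fractal than on smooth hemispheres (0.42 ± 0.09, adjusted p = 0.00156). COL8A2, its partner, was called higher with THP-1 cells on fractal hemispheres alone among the 4 treatment comparisons, at 8.22, 8.63 and 16.5 CPM against 3.90, 4.09 and 2.27 (1.68 ± 0.28, adjusted p = 2.25e-05). The COL8A2 interaction, at 1.35 ± 0.41 (adjusted p = 0.0287), missed the threshold without any 1 of 6 libraries, with adjusted p of 0.0518 to 0.114. COL16A1, a minor collagen associated with fibrils, went from 25.0, 24.6 and 25.7 CPM in smooth controls to 55.0, 57.4 and 56.6 with cytokines, and from 23.4, 21.5 and 20.7 to 31.5, 37.35 and 30.4 on fractal hemispheres. Those rises were 1.16 ± 0.15 (adjusted p = 2.78e-06) and 0.60 ± 0.15 (adjusted p = 0.00546, or 0.0619 without fractal cytokines replicate 2). COL16A1 was lower on fractal than smooth hemispheres under cytokines (-0.77 ± 0.15, adjusted p = 0.00197). Its THP-1 rise on fractal hemispheres was 0.83 ± 0.15 (adjusted p = 9.64e-05), to 30.3, 32.8 and 53.9 CPM, or 0.52 without replicate 3. The call of COL16A1 higher on fractal than on smooth hemispheres with THP-1 cells (0.52 ± 0.15, adjusted p = 0.0169) ended without fractal THP-1 replicate 3 (0.23, adjusted p = 0.138) or smooth THP-1 replicate 1 (0.108).

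In controls FN1 stood at -0.28 ± 0.11, fractal against smooth (adjusted p = 0.29), and passed without the libraries that stood apart (7.25e-05). FN1 was higher with cytokines on fractal hemispheres by 0.55 ± 0.11 on the log2 scale (adjusted p = 0.000794). On smooth hemispheres its 0.29 ± 0.11 did not pass (adjusted p = 0.0691), but did without smooth cytokines replicate 2 (adjusted p = 0.000985). With THP-1 cells FN1 rose by 1.01 ± 0.12 on fractal hemispheres (adjusted p = 8.26e-08), which is 2.01-fold. On smooth hemispheres it rose by 0.32 ± 0.11 (adjusted p = 0.0328), a call that ended without any 1 of 5 libraries, with adjusted p of up to 0.178 without smooth THP-1 replicate 1. The THP-1 interaction for FN1 was 0.69 ± 0.16 (adjusted p = 0.00495). Fractal exceeded smooth by 0.41 ± 0.11 with THP-1 cells (adjusted p = 0.0126), and missed the threshold without smooth THP-1 replicate 2 (0.0812) or 3 (0.0578) or fractal THP-1 replicate 1 (0.0673). FN1 over COL1A1 per kilobase was 10.7, 9.92 and 10.2 in smooth controls and 7.32, 7.39 and 7.42 in fractal controls. It was 33.3, 31.3 and 9.55 in fractal THP-1 libraries. Replicate 3 of that group thus stood above the fractal and below the smooth controls, far below its partners.

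The fibrillins went apart. FBN1, the main fibrillin of adult microfibrils, lay between 4256 and 4601 CPM in controls and between 3743 and 6450 CPM in treated libraries. Its calls were small, 0.36 ± 0.12 and 0.38 ± 0.12 higher with cytokines (adjusted p = 0.0313 and 0.0237) and 0.30 ± 0.12 higher with THP-1 cells on fractal hemispheres (adjusted p = 0.0425). Each ended when single libraries were left out, with adjusted p of up to 0.213 without smooth cytokines replicate 3, 0.107 without fractal cytokines replicate 3 and 0.344 without fractal THP-1 replicate 3, where the changes were 0.23, 0.31 and 0.17. Fractal against smooth with THP-1 cells, FBN1 was called higher (0.36 ± 0.12, adjusted p = 0.0389), with 0.24 (adjusted p = 0.293) without fractal THP-1 replicate 3. Without both libraries that stood apart, FBN1 was called higher in each of these comparisons. FBN2, the fibrillin of developing tissue, fell in all 4 treatment comparisons, by 0.36 ± 0.10 and 0.62 ± 0.10 with cytokines (adjusted p = 0.00767 and 3.15e-05) and by 0.39 ± 0.10 and 0.51 ± 0.10 with THP-1 cells (adjusted p = 0.00313 and 0.000118). FBN2 ran from 228 to 290 CPM in controls and from 159 to 216 CPM in treated libraries, without overlap. Per kilobase FBN1 exceeded FBN2 by 15.0 ± 0.541 times in smooth controls and by 24.5 ± 3.83 times with cytokines.

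MFAP5, a glycoprotein of microfibrils, carried the larger of the 2 differences between surfaces in controls. It read 26.9, 36.2 and 33.4 CPM on smooth and 15.4, 15.2 and 13.4 on fractal hemispheres, without overlap (-1.13 ± 0.16, adjusted p = 0.00021). With cytokines it read 6.04, 9.36 and 6.39 CPM on smooth and 12.5, 11 and 13.4 on fractal hemispheres. The order of the surfaces was thereby reversed, with fractal 0.76 ± 0.18 higher (adjusted p = 0.00862, or up to 0.0757 without smooth cytokines replicate 1, and 0.0756 and 0.0604 without smooth cytokines replicate 3 and fractal cytokines replicate 3). MFAP5 fell by 2.15 ± 0.17 with cytokines on smooth hemispheres (adjusted p = 5.73e-10), its change on fractal ones was -0.26 ± 0.17 (adjusted p = 0.285), and the interaction was 1.89 ± 0.24 (adjusted p = 1.52e-05). With THP-1 cells MFAP5 was lower on fractal than on smooth hemispheres, at 18.2, 20.5 and 13.2 against 31.95, 27.9 and 27.2 CPM (-0.74 ± 0.16, adjusted p = 0.00156). MFAP2, its relative, rose with cytokines from 90.1 to 104 CPM in the 6 controls to 134 to 181 CPM (0.49 ± 0.09 and 0.71 ± 0.09, adjusted p = 9.49e-05 and 6.35e-07).

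Fibulins bridge elastic fibres and basement membranes. FBLN1 fell with cytokines on smooth hemispheres, from 10.7, 11.6 and 12.8 to 7.38, 6.92 and 4.10 CPM (log2 -0.93 ± 0.24, adjusted p = 0.00493), and with THP-1 cells on smooth hemispheres (-1.11 ± 0.24, adjusted p = 0.000775). Its THP-1 fall on fractal hemispheres (-0.77 ± 0.25, adjusted p = 0.0124) ended without fractal control replicate 3 or fractal THP-1 replicate 1 or 2, with adjusted p of 0.0577 to 0.0798, and was -1.19 without fractal THP-1 replicate 3. FBLN2 and FBLN5 had 241 and 362 counts in all. FBLN2 was called lower with THP-1 cells on both surfaces, with 0.412 to 1.78 CPM in controls and 0 to 0.361 CPM in THP-1 libraries (-2.39 ± 0.81 and -2.57 ± 0.79, adjusted p = 0.0229 and 0.00885). Each FBLN2 call ended without single libraries, with adjusted p of up to 0.104 without smooth THP-1 replicate 2 and 0.0646 without fractal control replicate 1, and the smooth value was -3.72 without smooth THP-1 replicate 3. FBLN5 was called higher with THP-1 cells on fractal hemispheres (1.38 ± 0.51, adjusted p = 0.0263, or up to 0.129 without fractal THP-1 replicate 2). EMILIN1, a glycoprotein of elastic fibres, had 284 counts and was called nowhere.

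Among the small leucine-rich proteoglycans, DCN had the largest cytokine change of the 31 genes on both surfaces. DCN, for decorin, and LUM, for lumican, are neighbours on chromosome 12 (91140484 to 91183123 and 91102629 to 91111831). DCN read 10.3, 10.7 and 10 CPM in smooth controls and 7.0, 8.03 and 7.10 in fractal controls. With cytokines DCN read 245, 168 and 263 CPM on smooth and 131, 131 and 117 on fractal hemispheres. With THP-1 cells DCN read 15.4, 15.1 and 10.6 CPM on smooth and 34.7, 31.3 and 40.2 on fractal hemispheres. Every cytokine library exceeded every other library, and with THP-1 cells the fractal libraries exceeded the smooth ones. DCN rose 21.8-fold with cytokines on smooth (4.45 ± 0.16, adjusted p = 2.33e-15) and 17.1-fold on fractal hemispheres (4.09 ± 0.16, adjusted p = 2.57e-14). With THP-1 cells DCN rose 4.77-fold on fractal hemispheres (2.25 ± 0.16, adjusted p = 8.14e-11), its change on smooth ones was 0.41 ± 0.16 (adjusted p = 0.058), and the interaction was 1.85 ± 0.23 (adjusted p = 6.17e-06). DCN was lower on fractal than on smooth hemispheres under cytokines (-0.84 ± 0.13, adjusted p = 0.000227) and higher with THP-1 cells (1.37 ± 0.15, adjusted p = 6.03e-07). In controls that difference was not called, but passed without the libraries that stood apart (-0.48, adjusted p = 0.00695).

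LUM was lower on fractal hemispheres in controls, at 16.1, 16.4 and 18.2 against 25.3, 25.6 and 22.7 CPM (-0.54 ± 0.12, adjusted p = 0.0123). That call ended without any 1 of 4 libraries, smooth control replicate 1 or 2 or fractal control replicate 1 or 2, with adjusted p of 0.0725 to 0.0804. It passed without the libraries that stood apart (-0.54, adjusted p = 9.91e-05). With cytokines LUM reached 141, 121 and 123 CPM on smooth and 93.4, 111 and 106 on fractal hemispheres, rises of 5.22-fold and 6.13-fold (2.38 ± 0.11 and 2.62 ± 0.11, adjusted p = 3e-14 and 1.43e-14). With THP-1 cells LUM reached 42.25, 43.9 and 37.0 CPM on smooth and 63.3, 52.6 and 45.3 on fractal hemispheres (0.74 ± 0.11 and 1.67 ± 0.11, adjusted p = 1.05e-05 and 7.74e-12), and the interaction was 0.93 ± 0.16 (adjusted p = 0.000192). LUM was 0.39 ± 0.11 higher on fractal than on smooth hemispheres with THP-1 cells (adjusted p = 0.0112), but not without smooth THP-1 replicate 3 (0.0796) or fractal THP-1 replicate 1 (0.25, adjusted p = 0.107).

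BGN, for biglycan, the closest relative of decorin in this set, did not follow DCN. It read 12.8, 16.3 and 17.1 CPM in smooth controls and 11.65, 13.1 and 15.2 in fractal controls. With cytokines it read 8.48, 8.65 and 6.45 CPM on smooth and 27.6, 22.5 and 21.5 on fractal hemispheres, one group below and the other above all controls. With THP-1 cells BGN read 3.32, 4.16 and 2.35 CPM on smooth and 4.11, 3.61 and 5.90 on fractal hemispheres. BGN fell by 0.97 ± 0.19 with cytokines on smooth (adjusted p = 0.000428) and rose by 0.84 ± 0.18 on fractal hemispheres (adjusted p = 0.00114), with an interaction of 1.81 ± 0.27 (adjusted p = 0.000125). Fractal thus exceeded smooth 3.04-fold under cytokines (1.60 ± 0.19, adjusted p = 2.96e-06). With THP-1 cells BGN fell by 2.22 ± 0.21 and 1.57 ± 0.21 (adjusted p = 7.64e-09 and 6.19e-07). DCN over BGN per kilobase was 0.130 ± 0.0217 in smooth and 0.107 ± 0.0156 in fractal controls, 5.67 ± 2.04 and 1.02 ± 0.102 with cytokines, and 0.813 ± 0.104 and 1.53 ± 0.195 with THP-1 cells. The merged exons span 12.8 kb for DCN and 2.45 kb for BGN. The size of the ratio depends on these lengths, and its change between groups does not.

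VCAN, for the large hyaluronan-binding proteoglycan versican, stood at 1807, 1677 and 1778 CPM in smooth controls and 1581, 1565 and 1633 in fractal controls. With cytokines it stood at 1266, 1088 and 1251 CPM on smooth hemispheres, below all controls, and at 1756, 1740 and 1829 on fractal ones, above the fractal and overlapping the smooth controls. VCAN fell by 0.55 ± 0.10 on smooth hemispheres (adjusted p = 0.000135), its change on fractal ones was 0.16 ± 0.10 (adjusted p = 0.269, or 0.0241 without the libraries that stood apart), and the interaction was 0.70 ± 0.14 (adjusted p = 0.00355). With THP-1 cells VCAN fell by 0.39 ± 0.10 on smooth (adjusted p = 0.00299) and by 0.32 ± 0.10 on fractal hemispheres (adjusted p = 0.008, or 0.0533 with upper-quartile scaling), the last value being -0.20 without fractal THP-1 replicate 3.

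LOX, the lysyl oxidase that crosslinks collagen and elastin, read 622, 605 and 605 CPM in smooth controls and 584, 582 and 577 in fractal controls. With THP-1 cells LOX read 231, 223 and 208.5 CPM on smooth and 324, 321 and 253 on fractal hemispheres, below all controls and without overlap between surfaces. LOX fell by 1.47 ± 0.09 on smooth (adjusted p = 2.31e-12) and by 0.96 ± 0.09 on fractal hemispheres (adjusted p = 1.23e-09), and the interaction was 0.51 ± 0.12 (adjusted p = 0.00509). With cytokines it was 0.27 ± 0.09 lower on smooth hemispheres (log2 -0.27, adjusted p = 0.0191), which ended without smooth control replicate 1 (0.0646) or smooth cytokines replicate 3 (0.0787). Fractal exceeded smooth by 0.44 ± 0.09 with THP-1 cells (adjusted p = 0.000551). Under cytokines the excess of LOX was 0.32 ± 0.09 (adjusted p = 0.0259), a call that ended without any 1 of 5 of the 6 libraries compared, with adjusted p of 0.059 to 0.202.

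LOXL2, which also acts on collagen IV, fell with THP-1 cells from 1251 to 1359 CPM in controls to 804 to 869 CPM on smooth hemispheres (-0.61 ± 0.09, adjusted p = 1.3e-05). On fractal hemispheres it read 949, 940 and 1276 CPM (-0.35 ± 0.09, adjusted p = 0.00261), of which replicate 3 reached the level of the smooth controls. LOXL2 was called higher on fractal than on smooth hemispheres with THP-1 cells (0.34 ± 0.09, adjusted p = 0.0117), with 0.17 (adjusted p = 0.0405) without fractal THP-1 replicate 3 and no call without smooth THP-1 replicate 2 (0.0657). LOXL1, tied to elastic fibres, went from 82.3, 88.1 and 86.8 to 58.2, 62.7 and 76.9 CPM with cytokines on smooth hemispheres (-0.38 ± 0.09, adjusted p = 0.00325) and to 113, 105 and 103 with THP-1 cells (0.32 ± 0.09, adjusted p = 0.0075). It was lower on fractal hemispheres with THP-1 cells, at 82.4, 81.3 and 72.2 CPM (-0.45 ± 0.09, adjusted p = 0.000963). PCOLCE, which speeds the cutting of procollagen ends, was called higher with THP-1 cells on smooth hemispheres, from 3.47, 2.88 and 3.41 to 5.41, 6.90 and 8.43 CPM (1.09 ± 0.25, adjusted p = 0.00108). On fractal hemispheres PCOLCE stood at 0.57 ± 0.25 (adjusted p = 0.056), which passed without fractal control replicate 2 (0.0232), without fractal THP-1 replicate 3 (0.0364) and with upper-quartile (0.0296) or RLE factors (0.0475). PCOLCE, VCAN and LOXL1 share 585, 453 and 335 exon bases with antisense genes, the most of the set, and 17 of the 35 genes overlap a gene on the opposite strand. The libraries kept no strand, so such reads cannot be told apart.

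Whether a treatment acted differently on the 2 surfaces was tested directly. For cytokines the interaction was called for 5 of 31 genes (COL6A3, COL12A1, BGN, VCAN and MFAP5), against 2.70% of all genes. All 5 had a higher signed log2 fold change on fractal than on smooth hemispheres. Of all genes, 1.28% were called with a higher and 1.43% with a lower signed change on fractal hemispheres. Of the 5 genes, 4 fell on smooth hemispheres, and COL12A1 rose on both. For THP-1 cells it was called for 11, 9 of them higher and 2 lower, against 5.35% and 7.88% of all genes (13.2% together). The signed log2 fold change was higher on fractal hemispheres for COL7A1, COL8A1, COL8A2, COL12A1, COL16A1, FN1, DCN, LUM and LOX. It was lower there for COL6A3 and LOXL1. COL8A1 and LOX fell on both surfaces, and less on fractal hemispheres. COL6A3 also fell on both, and more on fractal hemispheres (-1.55 on smooth and -2.47 on fractal ones). The median interaction of the 31 genes was 0.23 for cytokines and 0.38 for THP-1 cells, beside 0.007 and 0.003 for all genes. Without the libraries that stood apart those medians were both 0.15, and the calls were 6 higher and 2 lower for cytokines, then including LOX, DCN and COL16A1, against 4.16% and 4.66% of all genes (8.82%), and 11 and 3 for THP-1 cells, against 8.81% and 13.2% (22.0%). The macrophage marker sum with THP-1 cells was also lower on fractal than on smooth hemispheres, as given above, and its part in the THP-1 interactions was not tested.

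**Figure D5:**
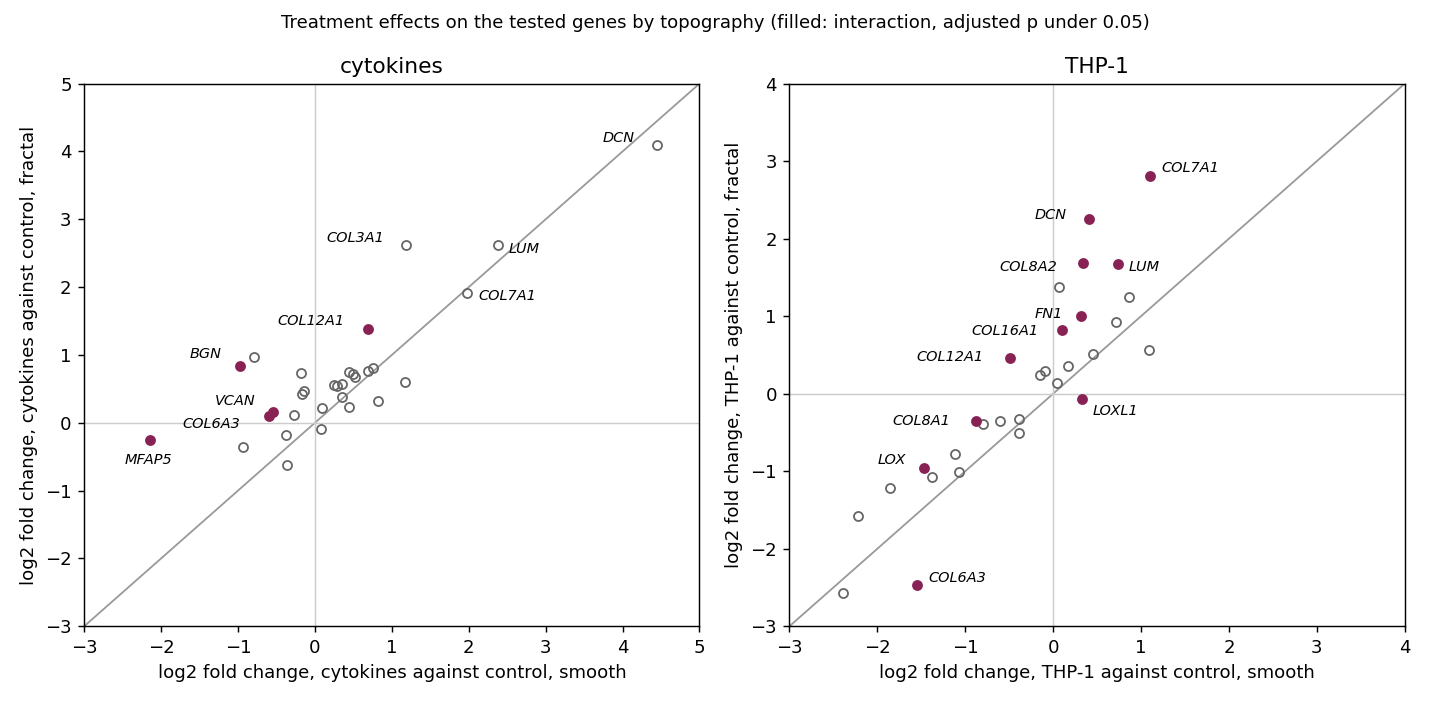
Each tested gene's log2 fold change with cytokines (left) or THP-1 cells (right) on smooth (horizontal) and fractal (vertical) hemispheres, with the line of equal effects. Filled points passed the interaction test: all 5 lie above the line for cytokines, and 9 of 11 lie above it for THP-1 cells, where COL3A1 is not drawn because those libraries had no count.

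Genes that act on the same matrix were taken from 4 further lists. Of 31 genes for collagen folding, hydroxylation, processing and crosslinking, all 31 tested, cytokines gave 13 higher and 3 lower on smooth and 11 higher and 5 lower on fractal hemispheres, with medians of 0.23 and 0.06. For all genes the shares called by cytokines were 25.7% and 25.8%, and by THP-1 cells 35.1% and 50.5%. BMP1, which cuts procollagen ends, rose 2.10-fold on both surfaces, from 147.5 to 309 CPM on smooth (1.07 ± 0.08, adjusted p = 7.6e-11) and from 135 to 284 CPM on fractal hemispheres (1.07 ± 0.08, adjusted p = 1.23e-10). PLOD2, a lysyl hydroxylase, rose by 0.76 ± 0.07 on smooth hemispheres (adjusted p = 1.15e-08). THP-1 cells gave 7 higher and 10 lower on smooth and 7 higher and 12 lower on fractal hemispheres. ADAMTS14, a procollagen N-proteinase, went from 34.9 to 170 CPM on smooth (2.28 ± 0.13, adjusted p = 2.26e-12) and from 21.9 to 116 CPM on fractal hemispheres (2.40 ± 0.13, adjusted p = 2.92e-13). LOXL3, another lysyl oxidase, fell (-0.73 ± 0.10 and -1.52 ± 0.10, adjusted p = 1.45e-06 and 2.61e-12). Between surfaces this list gave 1 higher and 1 lower in controls and under cytokines each, and 4 and 7 with THP-1 cells, against 1.77%, 4.46% and 20.0% of all genes.

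The same shares of all genes, 25.7% and 25.8% for cytokines and 35.1% and 50.5% for THP-1 cells, stand beside the counts of the other lists. Of 20 accessory genes of elastic fibres and microfibrils, 16 were tested, and THP-1 cells gave 5 higher and 3 lower on smooth and 7 higher and 2 lower on fractal hemispheres. EFEMP1, a fibulin, fell with THP-1 cells (-1.67 ± 0.12 and -2.48 ± 0.13, adjusted p = 2.37e-10 and 1.31e-13), and LTBP3, which holds latent TGF-β, rose by 0.93 ± 0.13 and 1.48 ± 0.13 (adjusted p = 4.2e-06 and 1.92e-09). With cytokines this list gave 4 higher and 1 lower on smooth and 5 higher and 1 lower on fractal hemispheres, LTBP3 among the higher (1.18 ± 0.13 and 1.48 ± 0.13, adjusted p = 2.31e-07 and 1.03e-08). Of 21 other collagen chains 11 were tested, with 5 called, all higher, with THP-1 cells on smooth and 4 higher and 2 lower on fractal hemispheres, and 2 and 2, then 1 and 1, with cytokines. COL27A1, a fibrillar collagen, rose in all 4 treatment comparisons, from 28.3 to 39.9 CPM with cytokines and 58.0 CPM with THP-1 cells on smooth hemispheres (0.50 ± 0.12 and 1.04 ± 0.12, adjusted p = 0.00277 and 1.82e-07). Of 19 other leucine-rich and hyaluronan-binding matrix genes 7 were tested, with 2 higher and 1 lower on smooth and 1 higher on fractal hemispheres with cytokines, and 1 and 1, then 3 and 2, with THP-1 cells.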

How the data were processed

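Poly-T selected RNA was sequenced as paired reads from libraries without strand information, per the labels' protocols. The submitters' processing notes list featureCounts 1.5.0-p3, HISAT2 2.0.5, CASAVA and the build GRCh38 (hg38), with roles and annotation not given in the sources used here. The deposited table holds raw counts per Ensembl gene in 18 libraries, as the authors made them, with no normalization. Symbols, positions and exon lengths were joined by identifier, from a list of gene names and from GENCODE 29, which held all 58735 genes.

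All genes were fitted together with edgeR 4.0.16 in R 4.3.3: TMM scaling, filterByExpr (min.count 10, min.total.count 15), a mean for each of 6 groups, robust quasi-likelihood F-tests with 12 residual degrees of freedom and a biological coefficient of variation of 12.2%, and Benjamini-Hochberg adjustment within each of 9 comparisons. SE is the size of the log2 fold change divided by the square root of F. The test was tried on simulated counts. Alternatives were DESeq2 1.42.0, voom in limma 3.58.1, RLE and upper-quartile factors, FN1 or all 35 genes left out of totals, no filter, at least 1 CPM in at least 3 libraries, only the libraries compared, the replicate number as a block, and each library left out. Leaving out the libraries that stood apart was added after seeing the data.

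The 35 genes, the other lists, the marker lists and the tests were chosen with earlier results of these data known. Every gene of the set is accounted for. Full statistics could go to up to 6 genes in each direction of a comparison, by size of change. That rule held where the group with the higher mean reached 5 CPM. FN1, COL1A1, COL1A2, COL3A1, DCN and BGN could also be given in any comparison, and not all of theirs are. Further genes of the set are given with their values. From other lists up to 3 genes in each direction by adjusted p could be named. Marker sums use unscaled CPM, and 1 marker is not reported here. Same-numbered libraries did not deviate together, so numbers were not used as pairs. Promoter windows are from RefSeq. Python 3.11.15 and matplotlib 3.10.9 drew the figures.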

Additional observations from a re-analysis of the deposited data

Results flagged for a closer look

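Treatment effects that differed between the surfaces by the interaction test are listed here, as log2 fold change on fractal minus that on smooth hemispheres. For cytokines they were 1.89 for MFAP5, 1.81 for BGN, 0.71 for COL6A3, 0.70 for COL12A1 and 0.70 for VCAN. For THP-1 cells they were 1.85 for DCN, 1.71 for COL7A1, 1.35 for COL8A2, 0.95 for COL12A1, 0.93 for LUM, 0.72 for COL16A1, 0.69 for FN1, 0.53 for COL8A1 and 0.51 for LOX. COL6A3 at -0.93 and LOXL1 at -0.39 had the lower signed log2 fold change with THP-1 cells on fractal hemispheres. LOXL1 was close to the threshold (adjusted p = 0.0492) and missed it without any 1 of 9 of the 12 libraries compared, with adjusted p of 0.0531 to 0.133. The calls of COL8A2 and COL16A1 each ended without any 1 of 6 libraries, with adjusted p of up to 0.114 without smooth control replicate 2 and up to 0.0915 without smooth THP-1 replicate 1. The COL16A1 value was 0.42 without fractal THP-1 replicate 3 (adjusted p = 0.0364).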

How the results depend on the processing

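Of 279 results for a gene of the set in a comparison, 121 were called, and 91 of those kept their call under every alternative setting, each library left out in turn among them, other than leaving out both libraries that stood apart. Leaving out both ended 1 call, COL16A1 fractal against smooth with THP-1 cells (adjusted p = 0.126). It added 35 calls, besides the COL5A2 interaction given below. The shares of all genes called also rose in that setting, as given above. Fractal against smooth in controls gave 2 calls, 4 with DESeq2 (3.51% of all genes called), 5 without a filter (1.26%), 19 when only the control libraries were fitted (19.4%), 8 without the libraries that stood apart (7.17%) and 1 to 2 with each library left out. Under cytokines the 8 calls became 13 with only the libraries compared (4.87%) and 18 without those that stood apart (9.42%), and with THP-1 cells 16 became 9 with only the libraries compared (also 9.42%). The 5 cytokine interactions became 8 without the libraries that stood apart (8.82%). The fit to fewer libraries estimates the spread from those alone. With each library left out, fractal against smooth gave 6 to 8 calls under cytokines and 11 to 17 with THP-1 cells, cytokines 17 to 22 on smooth and 12 to 14 on fractal hemispheres, THP-1 cells 18 to 21 and 21 to 26, and the interactions 5 and 8 to 12. The COL5A2 interaction with THP-1 cells turned from 0.06 to -0.23 without the libraries that stood apart (adjusted p = 0.029), and the cause was not tested. Deviations of same-numbered libraries from their group means correlated at -0.067 to 0.064 over 45 pairs, and the replicate number as a block ended 1 call, the LOXL1 interaction with THP-1 cells (adjusted p = 0.0612), which is not read as a weaker effect. That call was also lost in 5 other settings, from at least 1 CPM in 3 libraries (0.0504) to upper-quartile factors (0.101). Voom lost 7 calls and added 3. Upper-quartile scaling put the median of all genes for THP-1 cells on fractal hemispheres at 0.13, against 0.041 with TMM. The group with the highest level of a gene was the same in unscaled CPM and in CPM without FN1 other than for FBN1, VCAN and LOXL2. Depth limits COL3A1, COL8A2, COL11A1, PCOLCE, FBLN2, FBLN5 and EMILIN1, with 144 to 1443 counts each in all libraries. It also limits COL1A2 and its ratio to COL1A1, with 1693 COL1A2 counts in all and 83 in the lowest group.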
